A study of Mus musculus with 6 samples.

Results

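Genes of inflammasome signalling, pyroptosis and necroptosis were read in livers of Acsm3 knockout and control mice: Nlrp3, Pycard, Casp1, Casp4, Gsdmd, Il18, Ripk1, Ripk3, Mlkl and Casp8. They were picked by gene symbol from a list of such genes, and all 10 were found among the 28450 genes of the deposited table. The groups were 3 male Acsm3 knockout mice and 3 male control mice labelled WT, all 12 weeks old and on a normal diet, and each mouse gave 1 poly(A)-selected liver library. Acsm3 activates medium-chain fatty acids in mitochondria, and the comparison asks how hepatic RNA differs when it is disrupted. The sources used here do not give the strain, the part of Acsm3 that was disrupted or whether the controls were littermates.

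Inflammasomes are protein complexes that assemble when a sensor such as NLRP3 detects damage or microbial products, and the adaptor ASC, encoded by Pycard, then recruits and activates caspase-1. Caspase-1 matures interleukin-18 and interleukin-1 beta and cleaves gasdermin D, whose amino-terminal fragment forms pores in the plasma membrane, a form of death called pyroptosis. Mouse caspase-11, encoded by Casp4, senses cytosolic lipopolysaccharide and cleaves gasdermin D directly. Necroptosis runs through the kinases RIPK1 and RIPK3, which lead to phosphorylation of the membrane-disrupting pseudokinase MLKL, and caspase-8 restrains it by cleaving both kinases. In the liver, Kupffer cells and other myeloid cells are the main site of inflammasome sensors, while hepatocytes are generally held to carry little RIPK3. All of these proteins are controlled by cleavage or phosphorylation, which RNA levels do not show.

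The authors deposited FPKM, that is, fragments divided by the length of the gene and by the size of the library. Multiplied by exon length and by the total that the steps between low values implied for each library, which put a gene of 1 kb at 1 FPKM on 15.3 to 16.3 fragments, the values of all 10 genes came within 0.1 of whole fragments in every mouse. These fragment numbers are estimates and are used to show how much sequence lies behind each level. Changes are log2 differences of FPKM + 1, knockout minus control, ± the standard error from limma, a linear model fitted across genes, and this scale understates the fold of genes with low FPKM. A gene was called when its adjusted p was under 0.05 among the 10996 genes that averaged 1 FPKM or more over the 6 mice, of which 13.9% were called higher and 2.61% lower. These were 1532 and 287 genes, and after median-ratio scaling, which sets the typical gene of all libraries level, 840 and 736. The median difference of all tested genes was 0.13. Acsm3 itself was at 32.2 to 34.4 FPKM in the controls and 0.668 to 2.92 FPKM in the knockouts. All 6 libraries carried liver RNA by their markers, with albumin at 21103 FPKM or more, and knockout 3 had the lowest level of the 3 knockouts in each of the 6 leukocyte markers measured. Where a sentence gives 3 values for a group, they are mice 1, 2 and 3 in that order.

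The 5 stretches below lie upstream of transcription starts and are shown for the 3 members that passed a test in some fit (Casp1, Casp4 and Mlkl) and for Pycard and Ripk1, whose upstream bases held a searched motif. They come from RefSeq promoter windows of GRCm38.p6, and each was trimmed to the 120 bases nearest the start that lie outside annotated exons of its gene. Letters run 5′ to 3′ on the strand of the gene, and capitals mark a searched motif.
Casp1, chr9:5298397-5298516, plus strand: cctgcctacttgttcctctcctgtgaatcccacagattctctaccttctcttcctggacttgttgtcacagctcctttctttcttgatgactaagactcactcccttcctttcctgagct
Casp4, chr9:5308708-5308827, plus strand: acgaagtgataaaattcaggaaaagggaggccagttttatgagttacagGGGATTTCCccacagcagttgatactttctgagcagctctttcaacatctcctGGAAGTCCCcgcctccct
Mlkl, chr8:111338206-111338325, minus strand: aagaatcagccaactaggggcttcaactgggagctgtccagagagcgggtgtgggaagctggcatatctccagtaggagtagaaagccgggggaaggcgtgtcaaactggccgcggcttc
Pycard, chr7:127993868-127993987, minus strand: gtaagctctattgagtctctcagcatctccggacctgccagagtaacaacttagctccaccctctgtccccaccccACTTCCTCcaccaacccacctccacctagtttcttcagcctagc
Ripk1, second start, chr13:34002754-34002873, plus strand: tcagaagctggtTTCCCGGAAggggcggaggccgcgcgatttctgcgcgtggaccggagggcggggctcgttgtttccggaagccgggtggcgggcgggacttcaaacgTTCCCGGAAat

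RefSeq windows were at hand for 9 of the 10 genes, 12 windows of 300 bases in all (250 before and 50 after the start), and they were searched on both strands. The NF-kB type motif GGGANTTCC occurred at 2 places in Casp4, and in 1.68% of all 32851 windows. It was added to the search after the windows had been seen. The NF-kB type motif searched first, GGGANNTTC, was in no member window and in 3.94% of all windows. The STAT motif TTCNNNGAA stood at 2 places upstream of the second start of Ripk1 and in 8.3% of all windows. The PU.1 core GAGGAAGT lay upstream of Pycard, where it reads on the opposite strand, and in 3.2% of all windows. The interferon response motif GAAANNGAA was in a window of Ripk3 and in the second window of Ripk1, across or after the start and therefore not marked in the stretches shown, and in 8.56% of all windows. In Ripk1 it overlaps the STAT motif nearer the start. The windows of Casp1, Mlkl, Nlrp3, Il18 and Casp8 held none of the 5 motifs. Such matches describe the letters of these windows only.

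Of the 10 members 6 averaged 1 FPKM or more and entered the test, and 2 of these 6, Casp1 and Mlkl, were called higher in the knockouts. By limma 0 of the 6 were called lower, also at an unadjusted p under 0.05. Over all tested genes 13.9% were called higher and 2.61% lower. Nlrp3, Pycard, Casp4 and Ripk3 had lower means and were not tested at this filter. In a limma fit that kept the 17444 genes averaging 0.1 FPKM or more, all 10 were tested, with Casp4 and Mlkl called higher and none called lower, where 7.34% of all genes were called higher and 1.31% lower. Casp4 and Mlkl were also the 2 members called when voom, limma's method for counts, was fitted to the fragments, where 12.3% of 17430 genes were called higher and 1.77% lower. Every knockout lay above every control in 6 of the 10 genes, namely Nlrp3, Casp1, Casp4, Ripk1, Ripk3 and Mlkl, and 30.0% of the 17444 genes did so. In none of the 10 did every knockout lie below every control, a pattern of 6.02% of the 17444 genes. Mlkl was thus called in each of these 3 fits, Casp4 in both that tested it, and Casp1 in the first of them.

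**Figure D1:**
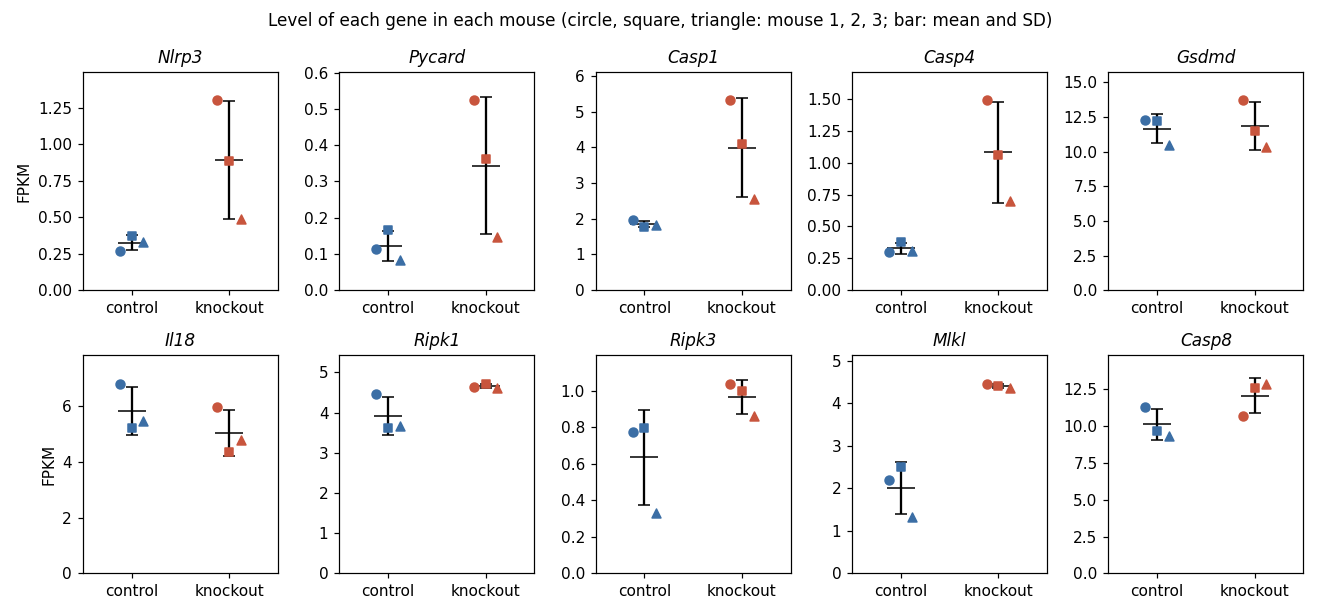
FPKM of each of the 10 genes (vertical axes from 0, a scale of its own for each gene) in 3 control and 3 knockout livers; circles, squares and triangles are mice 1, 2 and 3, and bars give the mean and SD. The knockout values of Mlkl lie together at 4.35 to 4.46 FPKM, while those of Casp1 spread from 2.56 to 5.32 FPKM.

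The sensor gene Nlrp3 was low in every liver. Controls had 0.271, 0.374 and 0.329 FPKM, against 1.3, 0.886 and 0.488 FPKM among the knockouts. The 3 knockouts lay above the controls without overlap, with knockout 1 the highest and knockout 3 closest to the controls. These levels rest on 18 to 82 fragments per mouse. The knockout mean of 0.89 ± 0.405 FPKM was 2.74 times the control mean of 0.325 ± 0.0512 FPKM (SD, n = 3), yet the gene did not pass in the fit that included it (0.49 ± 0.16, adjusted p = 0.0983, limma). On fragments the log2 difference was 1.33, with a 95% interval of 0.39 to 2.27 (voom, adjusted p = 0.0648). Nlrp3 (ENSMUSG00000032691) is on chromosome 11, plus strand, 59541568 to 59566956 (GRCm38, as for all genes here).

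Pycard, the gene of the adaptor ASC, had the lowest level of the 10. It was at 0.113, 0.166 and 0.0837 FPKM in the controls and at 0.524, 0.361 and 0.146 FPKM in the knockouts. Knockout 3 lay below control 2, so the groups overlapped. Behind these values stood 5 to 10 fragments per control and 9 to 31 per knockout, and a count of 5 fragments has an exact 95% Poisson interval of 1.62 to 11.7. The difference did not pass (0.25 ± 0.11, adjusted p = 0.198, limma, filter at 0.1 FPKM), and on fragments it was 1.31 with an interval of 0.02 to 2.61 (voom, adjusted p = 0.16). The intervals on fragments cover counting error and, in voom, the spread between mice. The FPKM of Pycard divides by 3800 exonic bases, the length of its longer coding transcript, while the shorter one has 493. Its exons also share 485 bases with Gm45205 on the opposite strand, and no source used here says whether strand was kept. Pycard (ENSMUSG00000030793) lies on the minus strand of chromosome 7 at 127989708 to 127993867.

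The caspase genes Casp1 and Casp4 are neighbours on chromosome 9, on the plus strand and 1562 bases apart. Casp1 (ENSMUSG00000025888, 5298517 to 5307265) had 1.96, 1.77 and 1.83 FPKM in the controls against 5.32, 4.1 and 2.56 FPKM among the knockouts. All knockouts exceeded all controls, and the controls differed little from each other while the knockouts spread widely. The difference was 0.77 ± 0.20 (limma, adjusted p = 0.0449), and the means, 1.85 ± 0.0975 and 3.99 ± 1.38 FPKM (SD, n = 3), differed 2.15-fold. This call sat close to the threshold. It did not pass without control 1, 2 or 3 (adjusted p = 0.0931, 0.124 and 0.12), nor without knockout 1 or 2 (adjusted p = 0.0926 and 0.131), and it passed with a smaller p without knockout 3 (adjusted p = 0.00658). On fragments it was 1.03 with an interval of 0.34 to 1.72 (voom, adjusted p = 0.0545).

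Casp4 (ENSMUSG00000033538, 5308828 to 5336783), which encodes caspase-11, had the largest fold of the 10. It was at 0.297, 0.375 and 0.309 FPKM in the controls and at 1.49, 1.06 and 0.7 FPKM in the knockouts. The groups did not overlap, and the means differed 3.31-fold (0.327 ± 0.0418 and 1.08 ± 0.395 FPKM, SD, n = 3). The mice had 18 to 86 fragments of Casp4 each. It was called with the filter at 0.1 FPKM (0.63 ± 0.14, adjusted p = 0.0455, limma) and on fragments (1.64, interval 0.82 to 2.46, voom, adjusted p = 0.0226), but not with no filter (adjusted p = 0.0825). The limma call of Casp4 also sat close to the threshold. Only these 3 alternatives tested Casp4. Fits without 1 mouse or with another scaling or pseudocount kept the filter at 1 FPKM and did not test it. Casp1 and Casp4 are paralogs, and the longest run of bases that any pair of their annotated transcripts share was 12. The ratio of Casp4 to Casp1, which a factor applied to a whole library does not move, was 0.151 to 0.211 in controls and 0.258 to 0.28 in knockouts, without overlap. An exact permutation test of 3 against 3 gave p = 0.1, the smallest it can give (0.167 after Benjamini-Hochberg adjustment over the 15 within-mouse ratios computed).

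Gsdmd, the gene of the pore former gasdermin D, showed no such difference. It was at 12.3, 12.2 and 10.5 FPKM in the controls and at 13.7, 11.5 and 10.3 FPKM in the knockouts, and the groups overlapped throughout. With 391 to 507 fragments per mouse it was among the best measured of the 10. The difference was 0.01 ± 0.12, with a 95% interval of -0.26 to 0.29 (limma, adjusted p = 0.946). A 2-fold change lies outside that interval. Gsdmd (ENSMUSG00000022575) is on chromosome 15, plus strand, 75862327 to 75867408.

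Il18, the gene of the cytokine that caspase-1 matures, was the 1 member with a lower mean in the knockouts. It was at 6.82, 5.21 and 5.49 FPKM in the controls and at 5.98, 4.37 and 4.8 FPKM in the knockouts. Control 1 was the highest and knockout 2 the lowest, and the groups overlapped. The difference of -0.18 ± 0.13 did not pass (interval -0.49 to 0.14, limma, adjusted p = 0.374). Il18 (ENSMUSG00000039217) lies on chromosome 9, plus strand, 50554827 to 50581840. Side by side, the pore and cytokine genes Gsdmd and Il18 differed by less than the spread between mice. Nlrp3, Pycard, Casp1 and Casp4 had means 2.15 to 3.31 times as high in the knockouts. Of these, Casp1 and Casp4 passed a test in some fit and Nlrp3 and Pycard in none. No difference between members was tested.

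**Figure D2:**
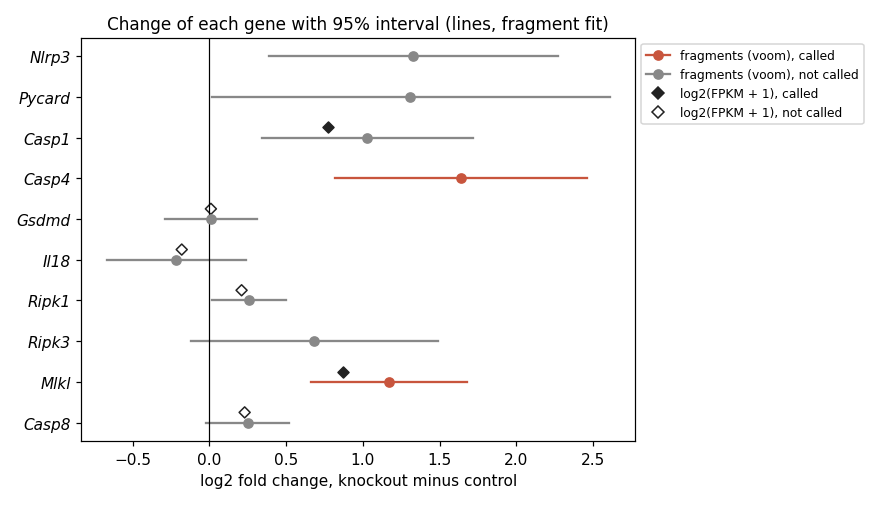
Log2 fold change of each gene, knockout minus control; dots with lines are the voom estimate on recovered fragments with its 95% interval (coloured where called), and diamonds are limma on log2(FPKM + 1) for the 6 genes at 1 FPKM or more (filled where called). Casp4 and Mlkl are called on fragments, Casp1 and Mlkl on FPKM, and the intervals of Gsdmd, Il18, Ripk3 and Casp8 span 0.

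Of the necroptosis genes, Mlkl, which encodes the protein that carries out membrane rupture, rose. Controls had 2.2, 2.5 and 1.33 FPKM and knockouts 4.46, 4.4 and 4.35 FPKM. The knockouts lay close together and well above every control, and control 3 was the lowest mouse. The means, 2.01 ± 0.609 and 4.4 ± 0.0555 FPKM (SD, n = 3), differed 2.19-fold, with a log2 difference of 0.87 ± 0.15 (limma, adjusted p = 0.0194). On 48 to 91 fragments per control and 155 to 162 per knockout the difference was 1.17 (interval 0.66 to 1.68, voom, adjusted p = 0.0147). The call was lost without knockout 1 (adjusted p = 0.0591) or knockout 2 (adjusted p = 0.0684). Mlkl (ENSMUSG00000012519) lies on the minus strand of chromosome 8 at 111311797 to 111338177.

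Ripk3, the kinase that activates MLKL, was much lower than Mlkl and varied among the controls. It was at 0.774, 0.799 and 0.333 FPKM in the controls and at 1.04, 0.998 and 0.863 FPKM in the knockouts. No knockout overlapped the controls, but the gap between control 2 and knockout 3 was small beside the gap between controls 2 and 3. The 12 to 37 fragments per mouse gave a log2 difference of 0.68 with an interval of -0.12 to 1.49 (voom, adjusted p = 0.234). On FPKM it was 0.28 ± 0.14 (limma, filter at 0.1 FPKM, adjusted p = 0.226). At this depth a change of Ripk3 as large as that of Mlkl lies within the interval. Ripk3 (ENSMUSG00000022221) is on chromosome 14, minus strand, 55784995 to 55788865.

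Ripk1, the kinase upstream of both death and survival signalling, was at 4.46, 3.61 and 3.66 FPKM in the controls and at 4.64, 4.72 and 4.62 FPKM in the knockouts. Control 1 came near the knockouts without reaching them. The difference of 0.21 ± 0.09 did not pass (limma, adjusted p = 0.145) and was 0.08 after median-ratio scaling, which removes the shift common to all genes. Exons of Ripk1 share 241 bases with Serpinb6a on the opposite strand and 511 bases with Gm17084 on the same strand. Within each mouse, Mlkl stood at 0.495, 0.691 and 0.362 of the Ripk1 level in controls and at 0.961, 0.931 and 0.941 in knockouts, so that both genes had nearly the same FPKM in the knockouts. The 2 groups did not overlap in this ratio (exact permutation p = 0.1, the smallest possible, 0.167 adjusted over the 15 ratios). Ripk1 (ENSMUSG00000021408) lies on chromosome 13, plus strand, 34002363 to 34037147.

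Casp8, whose protein starts apoptosis and restrains necroptosis, was with Gsdmd the most abundant of the 10 per length. It was at 11.3, 9.71 and 9.37 FPKM in the controls and at 10.7, 12.6 and 12.9 FPKM in the knockouts. Knockout 1 lay below control 1, so the groups overlapped. The difference was 0.23 ± 0.10 (interval -0.02 to 0.48, limma, adjusted p = 0.166), and it was 0.08 after median-ratio scaling. Casp8 (ENSMUSG00000026029) is on chromosome 1, plus strand, 58795374 to 58847503.

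By mean FPKM per length the controls ordered the genes as Gsdmd, Casp8, Il18, Ripk1, Mlkl, Casp1, Ripk3, Casp4, Nlrp3 and Pycard. In the knockouts Casp8 and Gsdmd changed places, as did Casp4 and Ripk3, and the rest kept their rank. The levels of Gsdmd and Casp8 overlapped between mice in both groups, as did those of Casp4 and Nlrp3. Those of Mlkl and Casp1 overlapped in both groups too, and those of Ripk1 and Mlkl overlapped in neither. The order depends on the exon lengths used for FPKM. For Casp4, for example, the union of exons has 3710 bases and the longest coding transcript 1435.

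Markers of other cells moved with genotype, and in whole liver more cells of a type and more RNA per cell cannot be told apart. All 6 pan-leukocyte genes tested (Ptprc, Laptm5, Coro1a, Tyrobp, Fcer1g and Lcp1) were called higher, and their summed level was 32.7 to 39.9 FPKM in controls and 55.1 to 89.9 FPKM in knockouts, lowest in knockout 3. With the filter at 0.1 FPKM 3 of these 6 were called. Over all genes 13.9% were called higher and 2.61% lower at 1 FPKM, and 7.34% and 1.31% at 0.1 FPKM. Markers listed for infiltrating myeloid cells summed to 46.5 to 85.9 FPKM in controls and 109 to 209 FPKM in knockouts. Most of this sum was 1 gene, Lyz2, at 42.6 to 81.7 FPKM in controls and 99 to 187 FPKM in knockouts. Among those called higher, Ccr2, Itgax, S100a8 and Cx3cr1 averaged less than 1 FPKM in the controls and entered the test only through the knockouts, and Ptprc and the stellate cell gene Col1a1 did likewise, so the counts of these lists are no support by themselves. With the filter at 0.1 FPKM, which took in all 8 myeloid markers, 5 were called higher. Of 11 Kupffer cell markers 3 were called higher and 2, Timd4 and Cd163, lower (sum 221 to 317 and 313 to 587 FPKM). No lymphocyte marker reached 1 FPKM on average, and their 10 levels summed to 1.18 to 2.25 FPKM in controls and 1.53 to 4.35 FPKM in knockouts. Of 6 endothelial markers 3 were called higher (sum 44.6 to 49.4 and 57.2 to 70 FPKM), and of 6 stellate cell markers 5 (sum 37.1 to 44 and 68.9 to 89.5 FPKM). The 1 tested cholangiocyte marker of 5, Spp1, which macrophages also express, was called higher, and Krt7 was under 0.1 FPKM in every mouse. Of 8 hepatocyte markers 2 were called lower and 1 higher, with sums of 40520 to 48580 and 29965 to 32914 FPKM. Albumin made up most of these sums, at 30151 to 37369 FPKM in controls and 21103 to 24029 FPKM in knockouts. The part of these cells in the changes of Casp1, Casp4 and Mlkl was not tested.

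Each member was also divided by the summed leukocyte markers of the same mouse. With 3 mice a group the smallest exact permutation p is 0.1, and no difference between members was tested. The mean marker sum was itself 2.08 times as high in the knockouts, without overlap. A gene with the same FPKM in both groups therefore comes out lower in the knockouts by this ratio. Casp1 came to 4.92, 4.65 and 5.6 FPKM per 100 FPKM of leukocyte markers in the controls and to 6.27, 4.56 and 4.65 in the knockouts. These values overlap, and their log2 difference was 0.02 (exact permutation p = 0.9, 0.9 after adjustment). Mlkl came to 5.53, 6.55 and 4.06 in the controls and to 5.26, 4.89 and 7.9 in the knockouts, which also overlap (p = 0.7 by the exact permutation test, 0.75 adjusted). Among the knockouts, knockout 3 had 55.1 FPKM of markers against 84.8 and 89.9 FPKM in knockouts 1 and 2, at nearly the same Mlkl. Among the controls, control 3 had both the lowest marker sum, 32.7 FPKM, and the lowest Mlkl, 1.33 FPKM. Whether Mlkl followed the markers within a group was not tested. Casp4 came to 0.744 to 0.982 in controls and to 1.18 to 1.76 in knockouts, without overlap (p = 0.1 by the exact permutation test, 0.167 adjusted). The groups of Gsdmd did not overlap either, with 30.9 to 32.1 in controls and 12.8 to 18.7 in knockouts (log2 difference -1.01, exact permutation p = 0.1, 0.167 adjusted). Il18 (-1.24), Ripk1 (-0.77) and Casp8 (-0.78) were likewise lower per marker level in every knockout than in every control, with the same p-values by the exact permutation test. These lower ratios largely restate the higher markers. The mean FPKM of Gsdmd, Il18, Ripk1 and Casp8 were 1.01, 0.864, 1.19 and 1.19 times those of controls. Nlrp3 (0.33), Pycard (0.35) and Ripk3 (-0.32) overlapped between the groups, with p = 0.5, 0.6 and 0.4 by that exact permutation test (0.625, 0.692 and 0.545 adjusted).

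**Figure D3:**
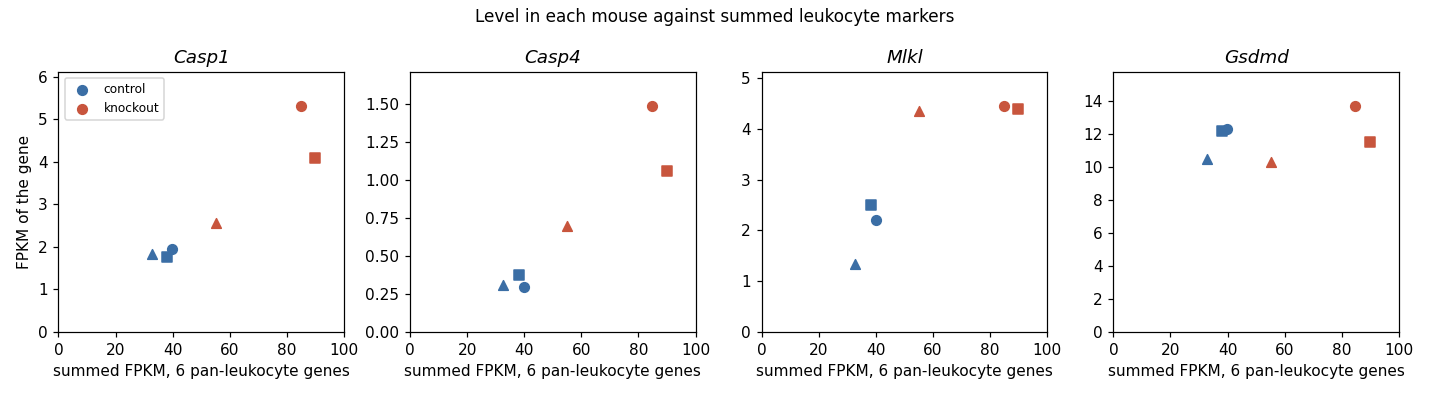
FPKM of Casp1, Casp4, Mlkl and Gsdmd (vertical axes) against the summed FPKM of 6 pan-leukocyte genes (horizontal axes) in each mouse; symbols as circles, squares and triangles for mice 1, 2 and 3. Knockout 3, the knockout with the lowest marker sum, has the lowest Casp1 and Casp4 of the knockouts but nearly the Mlkl of the others. Control 3 has the lowest marker sum and the lowest Mlkl of the controls.

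The other genes of these pathways were followed in 6 lists of 95 genes, of which 93 were found and 68 tested. Of these 68, 14 were called higher and 1 lower (median 0.26, against 0.13 for all genes). Over all tested genes 13.9% were called higher and 2.61% lower. The 14 became 2 to 4 without any 1 of the controls or of knockouts 1 and 2, and 23 without knockout 3. Of these 14, Naip5, Tnfaip3 and Tlr4 averaged less than 1 FPKM in the controls and entered the test only through the knockouts. Counts that include them are no support by themselves. Their adjusted p is therefore given from the fit with the filter at 0.1 FPKM. With that filter 14 other pathway genes, not all the same, were called higher and 1 lower. Over all genes it called 7.34% higher and 1.31% lower. Among other inflammasome sensors the fit with the filter at 0.1 FPKM called 1 of 11, Naip5 (0.66, adjusted p = 0.0425, limma). Its product recognises bacterial flagellin with NLRC4. The most abundant listed sensor per length was Nlrp6, at 25.1 to 32.1 FPKM in controls and 17.9 to 28.2 FPKM in knockouts (-0.43, adjusted p = 0.138, limma), and it was called lower after median-ratio scaling (-0.59, adjusted p = 0.0433). The DNA sensor Aim2, at 0.345 to 0.469 FPKM in controls and 0.53 to 1.45 FPKM in knockouts, was under the filter and did not pass at 0.1 FPKM (adjusted p = 0.105, limma). Of genes that license or regulate inflammasomes, 6 of 13 were called higher (against 13.9% of all genes) and none lower (median 0.46). They included the guanylate-binding protein Gbp2 (1.18, adjusted p = 0.00853, limma), the interferon-inducible Ifi204 (adjusted p = 0.027, 1.81 to 2.41 FPKM in controls and 3.78 to 7.93 FPKM in knockouts) and the transcription factor Irf8 (0.81, adjusted p = 0.0213). Gbp5 averaged less than 1 FPKM and was called with the filter at 0.1 FPKM (0.45, adjusted p = 0.0463, limma), as were 6 of 16 genes of this list. Ptprc and the other leukocyte markers were also higher, and Irf8 is itself mainly a gene of myeloid and B cells. The part of such cells in the differences of Gbp2, Ifi204, Irf8 and Gbp5 was not tested.

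Among other pore formers, caspases and cytokine partners, 2 of 8 tested genes were called higher and 1 lower (median 0.51). Over all tested genes 13.9% were called higher and 2.61% lower. The cytokine Il1a (0.76, adjusted p = 0.0229, limma) and the receptor antagonist Il1rn (0.87, adjusted p = 0.0368) rose, and the receptor subunit Il1rap (-0.42, adjusted p = 0.0186) fell. With the filter at 0.1 FPKM 1 of 11 was called higher and 1 lower, where 7.34% and 1.31% of all genes were. The call of Il1rn was lost there (adjusted p = 0.051, limma), and it passed in 11 of 19 alternatives. Il1b, which caspase-1 matures beside Il18, was at 0.768 to 2.37 FPKM in controls and 1.41 to 2.42 FPKM in knockouts, with overlap (0.26, adjusted p = 0.515, limma). The gene of the interleukin-18 binding protein, Il18bp, was at 3.6 to 5.47 FPKM in controls and 5.31 to 10.8 FPKM in knockouts (0.76, adjusted p = 0.0841, limma). It passed in 3 of 20 alternatives, among them without knockout 3 (adjusted p = 0.0116, limma) and with a replicate block (adjusted p = 0.0196, limma).

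In the death receptor complex, 3 of 24 tested genes were called higher and none lower (median 0.20). That is near the 13.9% called higher over all genes. The called genes were Tnfaip3, Ikbkg and Tab2. Tnfaip3, whose ubiquitin-editing product A20 restrains NF-kB, differed by 1.12 (adjusted p = 0.00936, limma, filter at 0.1 FPKM). The regulatory kinase subunit Ikbkg differed by 0.62 (adjusted p = 0.0138, limma) and the adaptor Tab2 by 0.43 (adjusted p = 0.038, limma). The call of Tab2 was lost after median-ratio scaling (adjusted p = 0.0635) and with the filter at 0.1 FPKM (adjusted p = 0.0512). With that filter 3 of 26 were called higher, where 7.34% of all genes were. They included Tnfrsf10b (adjusted p = 0.0348, limma), which averaged 0.0459 FPKM in controls and passed the filter only through the knockouts. Cflar, whose product cFLIP pairs with caspase-8, was at 8.75 to 9.32 FPKM in controls and 9.08 to 9.98 FPKM in knockouts (0.08, adjusted p = 0.451, limma), and its sign turned after median-ratio scaling (-0.07). Of 7 other triggers of necroptosis 1 was called, near the 13.9% called higher over all genes at 1 FPKM. It was the lipopolysaccharide receptor Tlr4 (0.55, adjusted p = 0.0463, limma, filter at 0.1 FPKM). The call of Tlr4 was lost after median-ratio scaling (adjusted p = 0.0504) and quantile normalization (adjusted p = 0.0981). Zbp1, a nucleic acid sensor that binds RIPK3, was at 1.24 to 2.65 FPKM in controls and 2.38 to 3.26 FPKM in knockouts, and the groups overlapped (0.30, adjusted p = 0.321, limma). Of 12 apoptosis executioners and BCL2 family genes tested at 1 FPKM 1 was called, the survival gene Mcl1 (0.64, adjusted p = 0.0291, limma). The median of 0.14 was close to that of all genes. With the filter at 0.1 FPKM 2 of 17 were called higher, where 7.34% of all genes were. They were Mcl1 and Pmaip1 (0.64, adjusted p = 0.0284, limma).

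**Figure D4:**
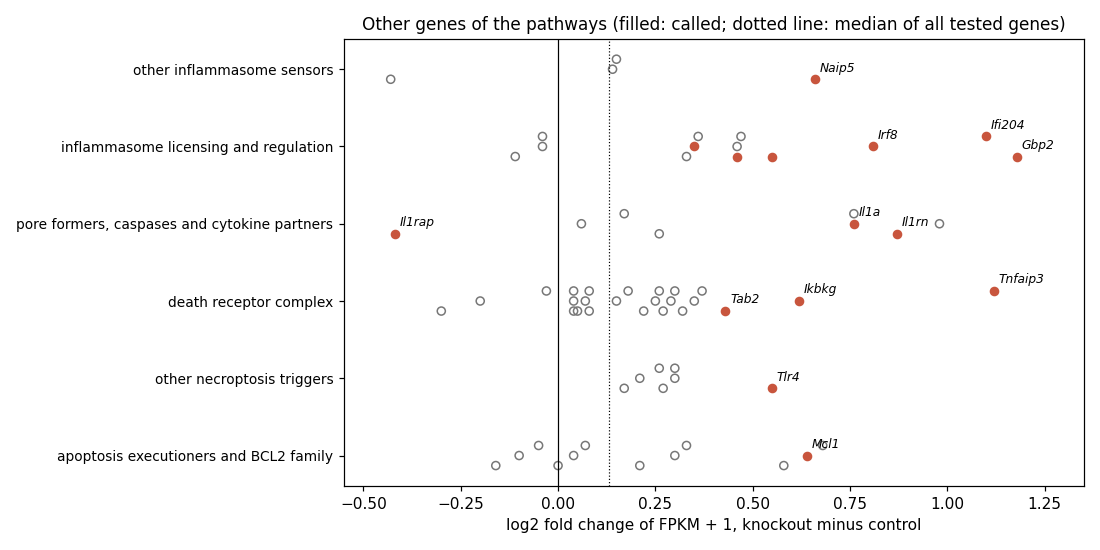
Log2 fold change of FPKM + 1, knockout minus control (horizontal axis), of the 68 tested genes of the 6 pathway lists (rows); filled points were called, and the dotted line is the median of all tested genes, 0.13. The 15 called genes lie to the right of that line except Il1rap.

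The log2(FPKM + 1) of other tested genes was correlated over the 6 mice with the mean of the standardised values of the 6 tested members. Genes with predicted or clone names (Gm, Rik, AC and CT symbols) were left out. The 5 genes with the highest Pearson's r were Ier3ip1, Egfl7, Rnpepl1, Rhod and Olig1, at 0.994 to 0.997. They were picked for their high r. This likeness is a description over 6 mice that share 2 groups.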

How the data were processed

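The authors deposited 1 table of FPKM for 6 liver libraries. Per the submitters' processing notes, which give no roles, the tools were StringTie 1.3.0, HISAT2 2.0.4 and Bowtie2 2.2.6, on GRCm38. Strand and the treatment of shared fragments: not given in the sources used here. Columns were matched to samples by title.

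FPKM were tested as log2(FPKM + 1) with limma 3.58.1 in R 4.3.3 (eBayes with a trend, Benjamini-Hochberg over the 10996 genes averaging 1 FPKM or more, threshold 0.05). P-values of limma and voom set each difference against a variance from the 3 mice per group, moderated across all tested genes. Fragments were recovered with union exon lengths of GENCODE M21: 27192 of 28450 genes had the same position there, and 99.59% to 99.71% of low values (under 20 fragments) came within 0.1 of whole. The recovered sums came to 102.87% to 103.38% of the implied totals, so these are estimates. The limma fit was also run on simulated log2(FPKM + 1) values, and the recovery of fragments was not tested by simulation. Ratios were tested with exact permutation in scipy 1.17.1.

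The members and lists were chosen with earlier results of these data known. Named genes were all members and, from each list, up to 3 called genes of largest change, or else the 1 of smallest p. Nlrp6, Aim2, Il1b, Il18bp, Cflar, Zbp1, Gbp5, Tnfrsf10b and Pmaip1 were named after their values were seen. Proteins were not analysed here. Alternatives were other pseudocounts, filters, scalings and variance models, voom, a replicate block and leaving out each mouse. Voom with a filter at 0.1 FPKM was added after the data were seen.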

Additional observations from a re-analysis of the deposited data

How the results depend on the processing

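The alternatives run numbered 20. Mlkl passed in 15 of the 19 that tested it (adjusted p 0.0117 to 0.0955) and Casp1 in 7 of 19 (0.00658 to 0.246). Gsdmd, Il18 and Casp8 passed in none of 20, and Ripk1 in none of 19. Nlrp3, Pycard and Ripk3 passed in none of the 3 that tested them. Casp4 passed in 2 of 3 (0.0226 to 0.0825). No fit without 1 mouse tested these last 4 genes. Gsdmd changed sign, without passing, after median-ratio scaling (-0.14), with quantile normalization (-0.11), without control 3 (-0.06) and without knockout 1 (-0.09), and ranged from -0.09 to 0.10 without 1 mouse. Cflar was -0.07 under both scalings.

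Members called higher numbered 2, but 1 with a pseudocount of 5, quantile normalization or voom on genes over 1 FPKM, 0 with no filter, a filter at 5 FPKM or a test against a 1.2-fold change, and 0 to 2 without 1 mouse. Over all genes, 1532 were higher and 287 lower. These were 544 and 106 with no filter, 848 higher with a filter at 5 FPKM, 840 and 736 after median-ratio scaling, 752 and 603 with quantile normalization, 2742 and 537 with array weights, 153 and 23 against a 1.2-fold change, and 223 to 1987 and 55 to 284 without 1 mouse. Of the other pathway genes, 14 were higher and 1 lower. These were 4 higher with no filter, 6 and 2 with a filter at 5 FPKM, 24 and 2 with array weights, 2 and 0 against a 1.2-fold change, 3 lower after median-ratio scaling, 2 lower with quantile normalization, and 2 to 23 higher and 0 to 1 lower without 1 mouse. Casp1 and Mlkl lie below 5 FPKM, so that filter leaves them untested. Fits without 1 mouse have fewer samples, and the test against a 1.2-fold change is stricter. The cause of the other shifts was not tested.

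Same-numbered mice deviated together at r = 0.111, 0.092 and 0.187, each mouse most with its own number, but the labels do not pair them. A replicate block gave 1672 genes higher and 346 lower, called 2 members (Casp1, adjusted p = 0.0361, and Mlkl, 0.019) and gave 19 other pathway genes higher and 2 other pathway genes lower.

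Depth limits Pycard, Ripk3, Nlrp3 and Casp4, at 5 to 86 fragments per mouse.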
